A study of Mus musculus with 10 samples.

Results

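The mRNA levels of p53 (Trp53), of 6 known p53 target genes (Mdm2, Ccng1, Cdkn1a, Btg2, Trp53inp1 and Phlda3) and of the 3 GADD45 genes (Gadd45a, Gadd45b and Gadd45g) were measured in mouse liver. These 10 genes were chosen by name, with earlier results of these data known. All 10 were found by their Ensembl identifier among the 38922 genes measured. All 10 were also among the 13719 genes with enough counts to be tested. Male wild-type mice of the inbred strain C57BL/6N, 6 weeks old, formed 2 groups of 5. One group received an intraperitoneal injection of CD95-Ab, an antibody that activates the death receptor CD95 (also called Fas), at 0.5 µg per g of body weight. The control group received the same volume of saline, and livers of both groups were taken 6 h after injection. Whole liver was used, 1 RNA-seq library per mouse. A higher or lower level from a changed number of cells of a type cannot be told apart from a change in RNA per cell.

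The transcription factor p53 is held at a low level in unstressed cells by the ubiquitin ligase Mdm2, and it is stabilised mainly as a protein when DNA is damaged or other stress signals arrive. It then raises transcription of genes for cell cycle arrest, cell death and repair, and also of Mdm2 itself, which closes a negative feedback loop. The GADD45 proteins are small acidic stress proteins without enzyme activity of their own that bind MAP kinase kinases, the Cdk1 and cyclin B1 complex and PCNA. Gadd45a is a classical p53 target, whereas Gadd45b and Gadd45g are known mainly as genes that respond to cytokines and growth factors, and in liver Gadd45b is known for its part in survival and regeneration.

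The stretches before the start sites of 8 of these genes are shown first, with matches to short sequences that p53 and other factors are known to recognise. Sequence outside the windows described next was not searched. RefSeq windows (build GRCm38.p6), from 250 bases before to 50 bases after an annotated start, were found for 9 of the 10 genes, with 2 windows for Cdkn1a and none for Trp53inp1. The p53 half-site, a 10-base palindromic consensus that reads alike on both strands, was found in 5 of the 10 windows, whereas 8.36% of all 32851 windows hold it. These were the windows of Trp53, Mdm2, Ccng1 and Gadd45a and 1 of the 2 of Cdkn1a. A full p53 site was taken as 2 abutting half-sites over 20 bases. Both cores CWWG (W, A or T) had to be intact, with at most 1 mismatch elsewhere. Such a site was found among these genes only in Cdkn1a, and 18 of all windows (0.0548%) hold one. It lay in only 1 of the 2 windows of Cdkn1a, at chr17:29090928-29090947, from 51 to 32 bases before the annotated start of that window. In the lines that follow, capitals mark the full site and a separate half-site in Cdkn1a (chr17:29090879-29090978, plus strand), and half-sites in Trp53 (chr11:69580264-69580363, plus strand), Mdm2 (chr10:117710859-117710958, minus strand), Ccng1 (chr11:40755387-40755486, minus strand) and Gadd45a (chr6:67037408-67037507, minus strand). The second run of capitals in Trp53 is a match to the kappaB consensus, which 8.46% of all windows hold.
Cdkn1a: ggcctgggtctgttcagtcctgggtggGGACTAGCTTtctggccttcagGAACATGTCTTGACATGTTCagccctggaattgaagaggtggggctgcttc
Trp53: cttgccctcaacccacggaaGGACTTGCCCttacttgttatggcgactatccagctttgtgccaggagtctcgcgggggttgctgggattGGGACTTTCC
Mdm2: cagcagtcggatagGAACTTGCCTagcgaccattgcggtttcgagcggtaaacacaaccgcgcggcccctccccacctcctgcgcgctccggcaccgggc
Ccng1: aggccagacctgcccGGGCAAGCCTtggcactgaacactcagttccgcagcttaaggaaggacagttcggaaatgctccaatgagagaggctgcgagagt
Gadd45a: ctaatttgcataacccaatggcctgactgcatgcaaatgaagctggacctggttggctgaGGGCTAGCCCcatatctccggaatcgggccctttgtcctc

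Among the other windows, Btg2 (chr1:134079256-134079355, minus strand) held the cyclic AMP response element TGACGTCA, found in 1.79% of all windows. Gadd45b (chr10:80929991-80930090, plus strand) and Gadd45g (chr13:51846575-51846674, plus strand) held the TATA motif TATAAA, found in 13.6% of all windows, as did Trp53 on its other strand. Both strands were searched. The AP-1 motif TGANTCA (7.81% of all windows) and the CArG box (1.63%) were found in none of the 10 windows. The window of Phlda3 held none of the motifs searched. A match is a description of the letters and does not show that a factor binds there. Capitals in the lines for Btg2, Gadd45b and Gadd45g mark the cyclic AMP response element or the TATA motif.
Btg2: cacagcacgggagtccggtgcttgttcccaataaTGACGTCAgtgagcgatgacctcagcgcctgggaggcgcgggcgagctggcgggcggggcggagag
Gadd45b: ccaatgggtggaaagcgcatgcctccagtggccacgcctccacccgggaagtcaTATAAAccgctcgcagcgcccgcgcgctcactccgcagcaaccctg
Gadd45g: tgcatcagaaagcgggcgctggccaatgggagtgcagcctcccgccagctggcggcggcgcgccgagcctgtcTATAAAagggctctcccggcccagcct

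CD95-Ab was followed by higher mRNA levels of 7 of the 10 genes, namely Trp53, Mdm2, Cdkn1a, Btg2 and the 3 GADD45 genes, and by lower levels of none. Ccng1, Trp53inp1 and Phlda3 did not pass the test. The test was the quasi-likelihood test of edgeR with Benjamini-Hochberg adjustment over all tested genes, and a gene was called at a false discovery rate (FDR) of 0.05 or less. Calls were frequent in this comparison: 47.3% of all tested genes passed, 25.4% as higher and 22.0% as lower. The share of called genes among the 10 was 70.0%, and their median log2 fold change was 1.41, against 0.01 over all tested genes. Because the 10 genes were chosen with earlier results of these data known, these contrasts are descriptions only. Levels in all 5 CD95-Ab mice lay above those in all 5 saline mice for 6 genes, the called ones without Gadd45g, whereas 18.6% of all tested genes separated the groups in this direction and 14.7% in the other. Cdkn1a, Btg2, Gadd45a and Gadd45b were called at an FDR of 0.05 and also rose by a log2 fold change of 2 or more. Of all tested genes, 6.59% met both conditions. At an FDR of 0.01 or less, 6 of the 10 passed, again without Gadd45g, and 32.7% of all tested genes.

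Depth ranged from 25965699 to 62097636 counts per saline mouse and from 27480796 to 44962196 per CD95-Ab mouse, and 3 counts corresponded to 0.0483 to 0.116 CPM (counts scaled to a common total of 1000000 per library). All members but Phlda3 had at least 30 counts in every mouse. No 2 libraries of the same group were alike within sampling noise.

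**Figure D1:**
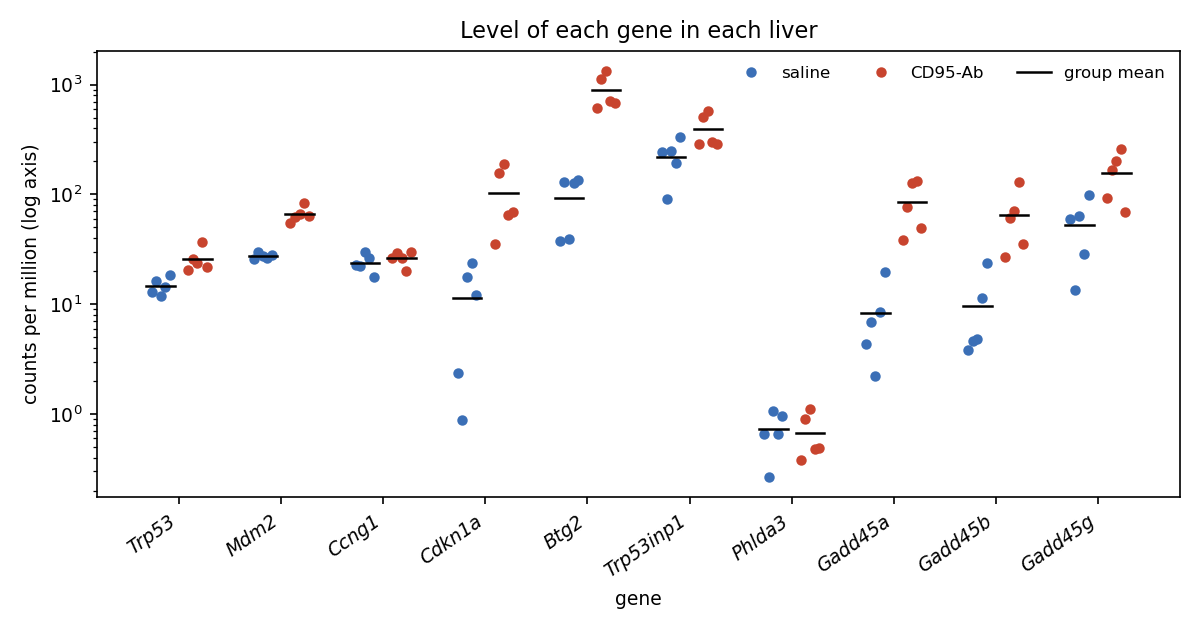
Level of each of the 10 genes in each liver, in CPM on a log axis. Each point is 1 mouse (blue, saline; red, CD95-Ab; 5 mice per group) and each black line a group mean. The 2 clouds of points are apart for Trp53, Mdm2, Cdkn1a, Btg2, Gadd45a and Gadd45b and overlap for Ccng1, Trp53inp1, Phlda3 and Gadd45g.

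Trp53 mRNA (chr11:69580359-69591873, plus strand, GRCm38) stood at 12.8, 16.4, 11.9, 14.3 and 18.4 CPM in saline replicates 1 to 5, and at 20.4, 25.6, 23.9, 37.1 and 21.9 CPM in CD95-Ab replicates 1 to 5. The groups did not overlap, and CD95-Ab replicate 4 was well above the other mice. The mean rose from 14.8 ± 2.63 to 25.8 ± 6.62 CPM (SD, n = 5 mice per group), a 1.74-fold increase (log2 fold change 0.80, SE 0.18, edgeR FDR = 0.00315). The processed pseudogene Trp53-ps, a near copy of the Trp53 mRNA, had 0 counts in every mouse.

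Mdm2 (chr10:117688875-117710758, minus strand), the ubiquitin ligase that marks p53 for degradation, was the steadiest of the called genes. Its level was 26.0, 30.2, 27.3, 26.1 and 28.3 CPM in saline replicates 1 to 5 and 54.5, 61.8, 66.8, 82.9 and 63.5 CPM in CD95-Ab replicates 1 to 5. Saline mice differed from each other by at most 1.16-fold, and every CD95-Ab mouse was far above them. The mean rose 2.39-fold, from 27.6 ± 1.73 to 65.9 ± 10.5 CPM (log2 fold change 1.26, SE 0.12, edgeR FDR = 1.08e-05).

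Ccng1 (chr11:40748552-40755311, minus strand) encodes cyclin G1, which brings the phosphatase PP2A to Mdm2 and is often used as a p53 marker in liver. Its level was 22.9, 22.5, 29.6, 26.1 and 17.7 CPM in saline replicates 1 to 5 and 26.5, 29.0, 26.6, 20 and 29.7 CPM in CD95-Ab replicates 1 to 5. The groups overlapped over most of their range, and CD95-Ab replicate 4, the highest mouse for Trp53 and Mdm2, was the lowest of its group here. The log2 fold change was 0.15 (SE 0.15, edgeR FDR = 0.438).

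The 2 genes for cell cycle arrest both rose by a log2 fold change of more than 3, from different baselines. Cdkn1a (chr17:29090976-29100727, plus strand) encodes p21, the inhibitor of cyclin-dependent kinases through which p53 stops the cell cycle. Its level was 2.38, 0.889, 17.8, 23.6 and 12.1 CPM in saline replicates 1 to 5 and 35.4, 156, 191, 65.2 and 69.1 CPM in CD95-Ab replicates 1 to 5. Saline replicates 1 and 2 were nearly without Cdkn1a and differed from replicate 4 by up to 26.5-fold, yet the groups did not overlap. The mean rose from 11.3 ± 9.77 to 103 ± 66.6 CPM, and the fitted change was 9.15-fold (log2 fold change 3.19, SE 0.77, edgeR FDR = 0.00503). In the annotation, 273 exonic bases of Cdkn1a lie opposite the gene AC167363.2, for which the tables hold no value.

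Btg2 (chr1:134075170-134079120, minus strand) encodes an antiproliferative protein that recruits the CCR4-NOT deadenylase to mRNAs. It stood at 37.8, 130, 39.4, 127 and 134 CPM in saline replicates 1 to 5 and at 607, 1116, 1330, 704 and 687 CPM in CD95-Ab replicates 1 to 5. Saline mice fell near 40 CPM (replicates 1 and 3) or near 130 CPM (replicates 2, 4 and 5), and the lowest CD95-Ab mouse was far above both. The mean rose from 93.6 ± 50.3 to 889 ± 316 CPM, a 9.50-fold change (log2 fold change 3.25, SE 0.43, edgeR FDR = 8.74e-05).

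Neither of the genes for cell death and survival signalling passed the test. Trp53inp1 (chr4:11156431-11174379, plus strand), whose protein promotes p53 phosphorylation and autophagy, stood at 243, 90.9, 247, 194 and 332 CPM in saline replicates 1 to 5 and at 290, 503, 579, 298 and 287 CPM in CD95-Ab replicates 1 to 5. CD95-Ab replicates 2 and 3 were above all other mice, and the other 3 lay between the saline mice. The log2 fold change was 0.82 (SE 0.32) with an edgeR FDR of 0.0520, just outside the threshold. DESeq2 gave 0.81 with an FDR of 0.0289 and limma on FPKM gave 0.77 with an FDR of 0.0424, and the gene also passed in edgeR without saline replicate 5 (1.01, FDR = 0.0232), CD95-Ab replicate 1 (0.91, FDR = 0.0483) or CD95-Ab replicate 5 (0.92, FDR = 0.0485). With any other single mouse left out it did not pass in edgeR (FDR from 0.0514 without CD95-Ab replicate 4 to 0.144 without CD95-Ab replicate 3).

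Phlda3 (chr1:135766119-135769136, plus strand), whose protein competes with the kinase Akt for membrane lipids, had 9 to 52 counts per mouse, the fewest of the 10 genes. Its mean was 0.723 ± 0.315 CPM in saline mice and 0.673 ± 0.315 CPM in CD95-Ab mice (log2 fold change -0.13, SE 0.40, edgeR FDR = 0.811).

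**Figure D2:**
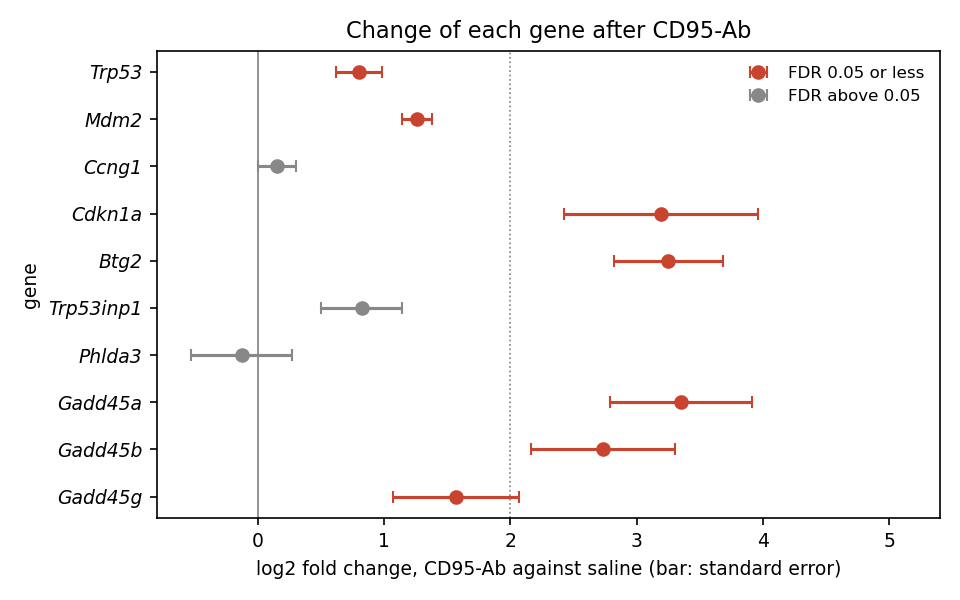
Log2 fold change of each of the 10 genes, CD95-Ab against saline, with its standard error (bars) from edgeR. Red points passed an FDR of 0.05 and grey points did not. The dotted line marks a log2 fold change of 2, which Cdkn1a, Btg2, Gadd45a and Gadd45b exceeded.

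All 3 GADD45 genes rose. Gadd45a (chr6:67035096-67037457, minus strand) stood at 4.33, 6.85, 2.20, 8.43 and 19.5 CPM in saline replicates 1 to 5 and at 38.3, 77.6, 127, 132 and 49.7 CPM in CD95-Ab replicates 1 to 5. The groups did not overlap, although saline replicate 5 had 8.86 times the level of replicate 3. The mean rose from 8.25 ± 6.71 to 84.9 ± 43.2 CPM, a 10.2-fold change (log2 fold change 3.35, SE 0.56, edgeR FDR = 0.000451). An opposite-strand transcript, E230016M11Rik, shares 337 exonic bases with Gadd45a and had at most 105 counts in any mouse, whereas Gadd45a had 78 to 3277.

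Gadd45b (chr10:80930073-80932204, plus strand), which is known to bind and inhibit the JNK kinase MKK7, stood at 3.81, 4.65, 4.79, 11.5 and 23.6 CPM in saline replicates 1 to 5 and at 26.9, 60.4, 70.4, 129 and 35.4 CPM in CD95-Ab replicates 1 to 5. The groups were apart, but only narrowly, since saline replicate 5 came close to CD95-Ab replicate 1. The mean rose from 9.68 ± 8.37 to 64.4 ± 40.2 CPM, a 6.63-fold change (log2 fold change 2.73, SE 0.57, edgeR FDR = 0.00216).

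Gadd45g (chr13:51846678-51848468, plus strand), an inhibitor of Cdk1 and cyclin B1 like its relatives, stood at 59.4, 13.4, 63.9, 28.7 and 99.8 CPM in saline replicates 1 to 5 and at 92.3, 168, 203, 257 and 68.6 CPM in CD95-Ab replicates 1 to 5. Here the groups overlapped, with saline replicate 5 above CD95-Ab replicates 1 and 5. The mean rose from 53 ± 33.6 to 158 ± 77.8 CPM, a 2.97-fold change (log2 fold change 1.57, SE 0.50, edgeR FDR = 0.0208). The call was lost without saline replicate 4 (1.38, FDR = 0.0562) and without CD95-Ab replicate 4 (1.29, FDR = 0.0532).

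Levels of different genes were compared per length, as FPKM. In saline mice Gadd45g had the highest mean of the 10 genes, at 53.6 ± 30.3 FPKM, followed by Trp53inp1 at 44.8 ± 14.8 and Btg2 at 35.3 ± 18.6 FPKM. The ranges of these 3 genes over saline mice overlapped. By mean, Mdm2 (11.4 ± 1.62 FPKM) and Trp53 (8.42 ± 1.28 FPKM) came next. Gadd45b, Gadd45a, Ccng1 and Cdkn1a had means between 6.18 and 7.71 FPKM, within each other's spread. The saline ranges of Gadd45b (3.56 to 16.9 FPKM), Gadd45a (2.01 to 14.9) and Cdkn1a (0.550 to 12.9) also overlapped those of Mdm2 and Trp53. Phlda3 was last at 0.530 ± 0.215 FPKM. After CD95-Ab the order changed at the top and in the middle. Btg2 led with 318 ± 102 FPKM, and Gadd45g followed at 150 ± 61.2 FPKM, its highest mouse at about the level of the lowest mouse for Btg2 (222 FPKM). Trp53inp1 (75.2 ± 23.6 FPKM), Gadd45a (71.6 ± 30.2), Cdkn1a (53.9 ± 32.9) and Gadd45b (49.4 ± 25.8) had overlapping ranges, and those of Cdkn1a and Gadd45b also overlapped that of Mdm2, which stood at 26.0 ± 2.38 FPKM, followed by Trp53 at 13.8 ± 2.28 and Ccng1 at 7.50 ± 1.64 FPKM. In the order of means, Cdkn1a moved from rank 9 to rank 5 and Mdm2 from rank 4 to rank 7, although their ranges overlapped in both groups.

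Within the GADD45 family, the make-up of the mRNA pool shifted toward Gadd45a. Gadd45g made up 89.6, 57.6, 91.6, 62.6 and 73.6% of the summed FPKM of the 3 genes in saline replicates 1 to 5, and 62.1, 58.6, 54.2, 53.5 and 48.6% in CD95-Ab replicates 1 to 5. It was the most abundant of the 3 in every mouse, but nearly the sole one in saline replicates 1 and 3. Its mean share fell from 75.0% ± 15.4 to 55.4% ± 5.15 (SD, n = 5), and that of Gadd45a rose from 12.8% ± 9.27 to 26.7% ± 3.72 (exact two-sided permutation test over mice, p = 0.0317 and adjusted p = 0.0476 over 3 shares for both). The share of Gadd45b was 12.2% ± 6.88 and 18% ± 2.99 (exact permutation test, adjusted p = 0.143). The 3 shares sum to 100% and are not independent. Both calls were lost when saline replicate 1, saline replicate 3 or any 1 of the CD95-Ab mice was left out (exact permutation tests, adjusted p from 0.0595 to 0.119), with differences from 11.4 to 17.2 percentage points for Gadd45a and from -23.9 to -15.5 for Gadd45g over all 10 omissions. The summed FPKM of the family was 76.0, 27.0, 72.6, 46.3 and 121 in saline replicates 1 to 5 and 169, 289, 335, 416 and 145 in CD95-Ab replicates 1 to 5, so the totals did not overlap.

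**Figure D3:**
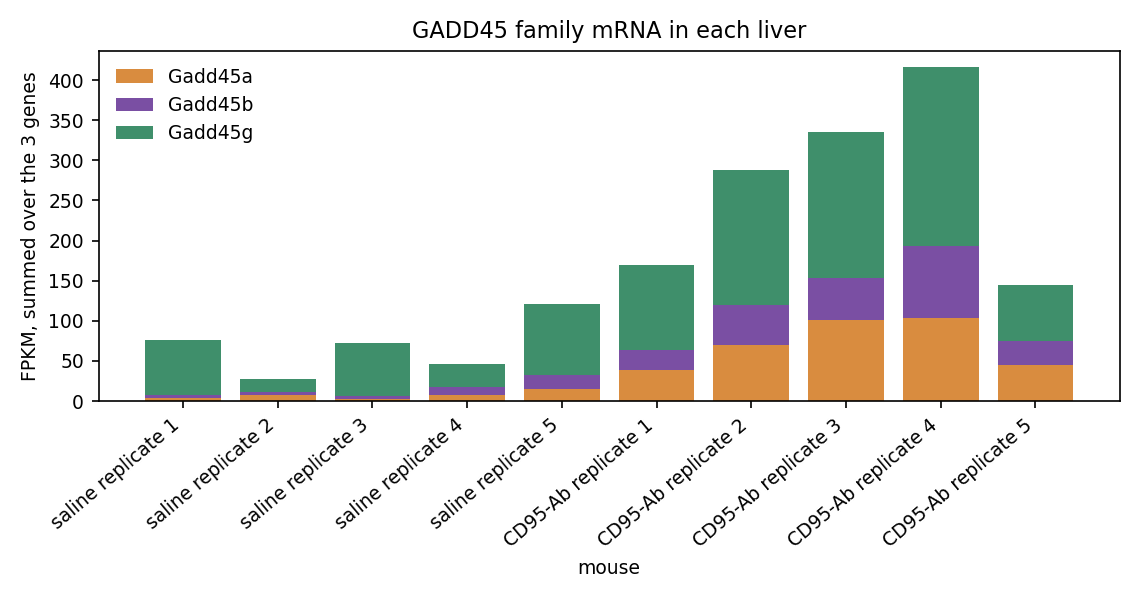
FPKM of Gadd45a, Gadd45b and Gadd45g stacked for each of the 10 mice, from 0. The total is higher in every CD95-Ab mouse (145 to 416) than in any saline mouse (27.0 to 121), and Gadd45g is the tallest segment in all 10 bars.

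Ratios within a mouse were tested for 5 gene pairs on log2(CPM + 0.1), with p-values adjusted over the 5. Apart from the added 0.1, such ratios do not depend on how libraries are scaled. The Cdkn1a to Trp53 ratio rose by 2.92 on the log2 scale, from -1.15 ± 2.05 to 1.77 ± 1.01 (SD, n = 5), and the groups did not overlap (exact two-sided permutation test, p = 0.00794, the smallest that 5 against 5 mice gives, adjusted p = 0.0397). The Mdm2 to Trp53 ratio rose by 0.46, from 0.91 ± 0.21 to 1.37 ± 0.15, with a slight overlap (exact permutation test, adjusted p = 0.0397). Both target mRNAs thus rose by more than the Trp53 mRNA. These adjusted p-values went above 0.05 when any 1 CD95-Ab mouse was left out (0.0794 to 0.0992, with log2 differences from 2.62 to 3.17 and from 0.42 to 0.51), and for Mdm2 also without saline replicate 5 (0.39, adjusted p = 0.0529). For the GADD45 genes, the log2 difference was -1.83 for Gadd45g to Gadd45a, -0.66 for Gadd45b to Gadd45a and 1.16 for Gadd45b to Gadd45g, and none passed after adjustment (exact permutation tests, adjusted p = 0.0529, 0.0714 and 0.0714). Some of these 3 passed when saline replicate 2 or 4 was left out: all 3 without replicate 2 (-2.27, -0.86 and 1.41, adjusted p from 0.0298 to 0.0397), and the 2 with Gadd45g without replicate 4 (-2.07 and 1.46, adjusted p = 0.0397).

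The genes also differed in their spread between mice of the same group. The pooled SD within groups on log2(CPM + 0.1) was 1.57 for Cdkn1a, 1.0 for Gadd45b, 0.99 for Gadd45a, 0.98 for Gadd45g and 0.76 for Btg2, all at or above the 95.1 percentile of tested genes, whose median was 0.31. Mdm2, at 0.17, stood at the 13.7 percentile. Trp53 and Ccng1 were in between, at 0.30 and 0.25, and Trp53inp1 and Phlda3 were both at 0.61.

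The mice that were high were not the same for all genes. Among CD95-Ab mice, Cdkn1a, Btg2, Trp53inp1 and Phlda3 were highest in replicates 3 and 2, whereas Trp53, Mdm2 and the 3 GADD45 genes were highest in replicate 4. Among saline mice, replicate 5, the deepest library, was highest on CPM for Trp53, Btg2, Trp53inp1 and the 3 GADD45 genes, and replicate 4 for Cdkn1a. On FPKM, saline replicate 2 was instead above replicate 5 for Trp53 (10.5 against 8.65) and Btg2 (55.2 against 43.2). Over the 45 pairs of genes, 3 had deviations from the group means that correlated over the 10 mice with an adjusted p of 0.0427 for Pearson's r (exact permutations within groups): Trp53inp1 with Phlda3 (r = 0.95, rho = 0.90), Gadd45a with Gadd45b (r = 0.88, rho = 0.79) and Trp53 with Gadd45a (r = 0.80, rho = 0.87). Raw p-values for r were 0.00236, 0.00229 and 0.00285, and without the 2 mice farthest from the median r was 0.93, 0.89 and 0.75. Spearman's rho passed for none of the 45 pairs after adjustment (adjusted p = 0.0828, 0.170 and 0.0828 for these 3 in the same exact test). For Trp53 and Cdkn1a r was -0.06 and rho -0.07 (exact permutation test, adjusted p = 0.935 and 0.992). The correlations were tested after they had been seen.

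**Figure D4:**
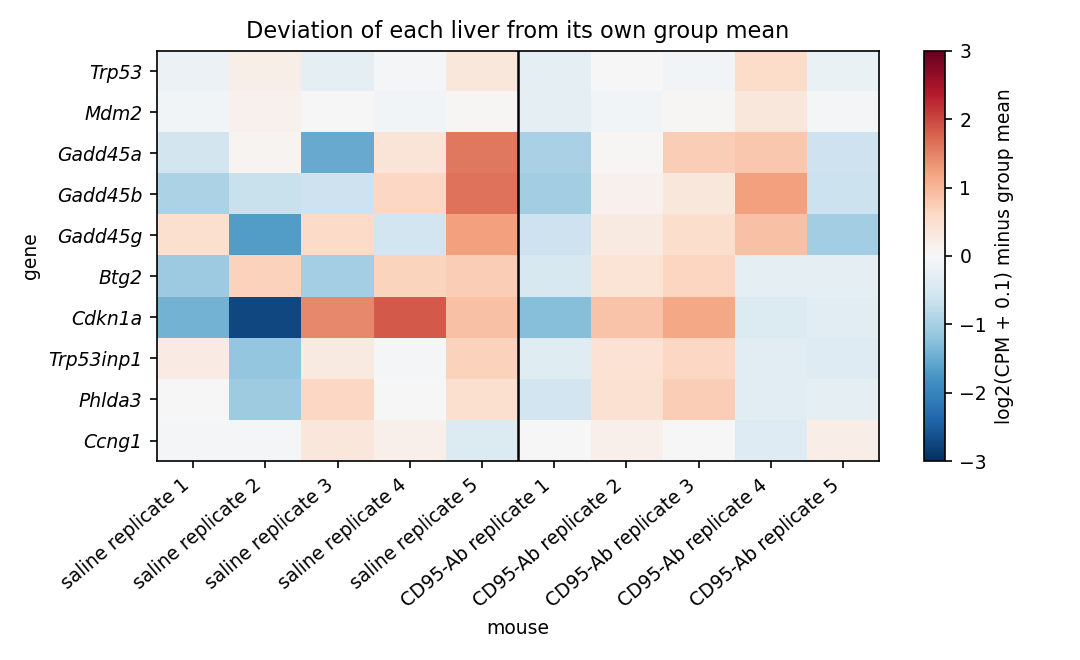
Deviation of each mouse from its own group mean on log2(CPM + 0.1), red above and blue below, for the 10 genes (rows) and 10 mice (columns, the black line separates saline from CD95-Ab). Saline replicate 5 is red for all 3 GADD45 genes. CD95-Ab replicate 4 is on the red side for Trp53, Mdm2 and the GADD45 genes, palest for Mdm2. The Mdm2 and Ccng1 rows are pale throughout.

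Of 12129 genes with a mean of at least 1 CPM, those whose deviations over the 10 mice were most like a given gene were Il20rb (Pearson's r = 0.957), Zswim6 (0.957) and Myl12b (0.951) for Gadd45a. For Gadd45b they were Sub1 (0.992), Cwc15 (0.982) and Sbno2 (0.981). For Gadd45g they were Faim (0.970), Ifrd1 (0.943) and Cebpd (0.940), and for Cdkn1a Inhbb (0.965), Aldh9a1 (0.962) and Cdh13 (0.961). These values are the highest of many and describe these mice only. Of these 12 genes, Il20rb, Zswim6, Sbno2, Ifrd1, Cebpd, Inhbb and Cdh13 rose after CD95-Ab, with log2 fold changes from 1.42 to 4.36 (edgeR FDR of 0.00481 or less), Aldh9a1 fell by 0.65 on the log2 scale (FDR = 0.00162), and Myl12b, Sub1, Cwc15 and Faim were not called.

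Other known p53 targets did not move as one. Of 37 listed, 35 were tested, and 14 were higher, 9 lower and 12 not called, with a median log2 fold change of 0.41. The called share was 65.7%, against 47.3% of all tested genes (25.4% higher and 22.0% lower). This list too was chosen with earlier results of these data known. Among 13 cell death genes, 7 rose and 3 fell. Pmaip1, which encodes the BH3-only protein Noxa, rose from 0.696 ± 0.280 to 5.87 ± 1.54 CPM (log2 fold change 3.07, SE 0.31, edgeR FDR = 1.38e-05), and Apaf1, the scaffold of the apoptosome, from 1.95 ± 0.438 to 16.1 ± 5.94 CPM (3.03, SE 0.26, FDR = 4.08e-06). Among genes for metabolism and stress, 2 rose and 4 fell. The 2 were Dram1, a lysosomal membrane protein linked to autophagy (log2 fold change 2.99, SE 0.31, FDR = 1.44e-05), and the stress cytokine Gdf15 (2.55, SE 0.50, FDR = 0.00134). Of 8 tested genes in the group of cell cycle, kinases and others, 5 rose and none fell, among them the kinase Plk2 (log2 fold change 2.45, SE 0.26, FDR = 1.84e-05). Of the 5 genes for DNA repair and nucleotide supply, 0 rose and 2 fell. Ak1 and Zfp365 had too few counts to be tested.

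Of 16 tested genes that control p53, 6 were higher and 2 lower, with a median log2 fold change of 0.18. The called share, 50%, was close to the 47.3% of all tested genes. The count of 8 was unsteady, at 2 to 6 with 1 mouse left out. The largest changes were in the checkpoint kinase Chek1 (log2 fold change 1.73, SE 0.40, edgeR FDR = 0.00409, from 0.562 ± 0.297 to 1.88 ± 0.812 CPM) and in Chek2 (-0.71, SE 0.25, FDR = 0.0348). The phosphatase Ppm1d, which switches off p53 signalling and is itself a p53 target, fell by 0.53 (SE 0.14, FDR = 0.00876). Smaller increases were found for Ppp1r13l, an inhibitor of p53 (0.59, FDR = 0.0316), for Trp53bp1 (0.43, FDR = 0.0294) and for the ubiquitin ligase Rchy1 (0.40, FDR = 0.0216). Cdkn2a, Trp63 and Trp73 were not tested, with at most 3 counts in any mouse.

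Of 13 partners of the GADD45 proteins, 2 were higher, 2 lower and 9 not called, with a median log2 fold change of -0.18. The called share was 30.8%, against 47.3% of all tested genes. Map2k6, a MAP kinase kinase upstream of p38, fell from 4.70 ± 1.55 to 0.681 ± 0.449 CPM (log2 fold change -2.81, SE 0.39, edgeR FDR = 0.000124). Mapk9, which encodes JNK2, fell by 0.38 (SE 0.11, FDR = 0.0120). Tdg, the thymine glycosylase that acts with GADD45 in DNA demethylation (0.77, SE 0.14, FDR = 0.000818), and the replication clamp gene Pcna (0.44, SE 0.10, FDR = 0.00328) rose. The kinase Map3k4, a direct target of all 3 GADD45 proteins, had a log2 fold change of -0.37 (FDR = 0.0566).

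The relatives of the 10 genes moved in both directions, with 3 higher, 3 lower and 3 not called of 9 tested. The called share was 66.7%, against 47.3% of all tested genes (25.4% higher and 22.0% lower). In the BTG and TOB family, Btg3 (log2 fold change 2.17, SE 0.23, edgeR FDR = 1.76e-05) and Btg1 (1.43, SE 0.18, FDR = 6.48e-05) rose like Btg2, whereas Tob2 (-1.15, SE 0.14, FDR = 3.91e-05) and Tob1 (-1.03, SE 0.14, FDR = 0.00011) fell. Cdkn1c, a relative of Cdkn1a, fell by 1.13 (SE 0.31, FDR = 0.0114). Phlda1 rose from 20.3 ± 9.65 to 218 ± 96.5 CPM (3.42, SE 0.41, FDR = 4.26e-05). Phlda2 had at most 12 counts and was not tested.

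**Figure D5:**
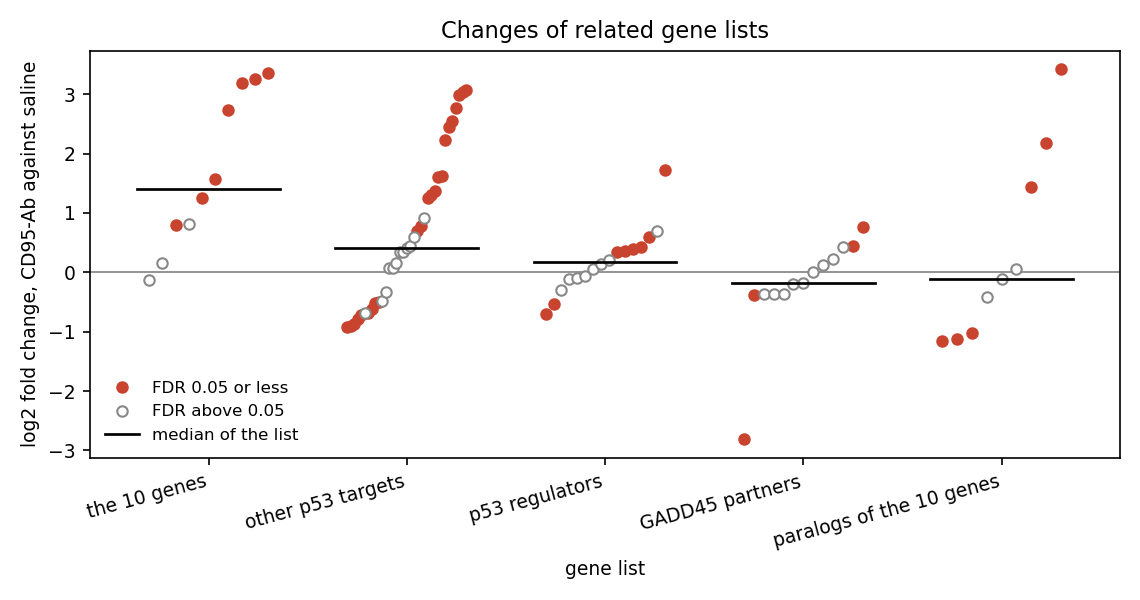
Log2 fold change of every tested gene of 5 lists, CD95-Ab against saline, sorted within each list. Red points passed an FDR of 0.05, open points did not, and black lines are list medians, 1.41 for the 10 genes, 0.41 for other p53 targets, 0.18 for p53 regulators, -0.18 for GADD45 partners and -0.12 for paralogs.

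Several lists of markers of other cells and of RNA composition also differed between the groups, in a comparison in which 47.3% of all tested genes were called. All 6 tested of 8 neutrophil markers rose, and their summed level was 3.04 to 7.36 CPM in saline and 96.4 to 430 CPM in CD95-Ab mice. Camp and Mmp8, which encode neutrophil granule proteins, had few or no counts in saline mice, with means of 0.0252 and 0.135 CPM. All 5 erythrocyte markers rose (135 to 323 against 1064 to 33995 CPM), with the highest sums in CD95-Ab replicates 3 and 4. Of 7 hepatocyte markers, 3 fell and none rose (103920 to 129312 against 48285 to 84969 CPM), and none of them was at 0. Endothelial markers rose in 5 of 6 (42.6 to 107 against 141 to 269 CPM), T and NK cell markers in 5 of 7 (1.41 to 4.47 against 6.57 to 7.67 CPM), cholangiocyte markers in 4 of 5 (18.3 to 33.8 against 48.3 to 186 CPM), stellate cell markers in 3 of 6 (137 to 182 against 298 to 475 CPM) and Kupffer cell markers in 2 of 6 (111 to 387 against 212 to 515 CPM). The called shares of the Kupffer cell list (33.3%) and of the hepatocyte list (42.9%) lay below that of all tested genes. With 1 mouse left out, the count was 2 to 5 for T and NK cell markers (2 without saline replicate 3, 4 or 5 or CD95-Ab replicate 4, 3 without CD95-Ab replicate 1, 2, 3 or 5) and 1 or 2 for Kupffer cell markers (1 without saline replicate 3, 4 or 5 or CD95-Ab replicate 1, 2 or 5). RNA genes without a poly(A) tail rose in 4 of 7 tested (72.0 to 163 against 417 to 1440 CPM). The rise of this sum was mostly that of 1 gene, Rn7sk, with means of 0.392 CPM in saline and 742 CPM in CD95-Ab mice. Hist1h1c (42.6 and 24.5 CPM) and Hist1h2bc (72.0 and 71.9 CPM), the highest of the list in saline mice, were not called. Immediate early genes, a class to which Btg2 and the GADD45 genes are often added, rose in 9 of 11 tested (350 to 1550 against 1639 to 3758 CPM), and of 12 circadian clock genes 2 rose and 5 fell (444 to 681 against 262 to 336 CPM). The part of any of these in the changes of Trp53, its targets and the GADD45 genes was not tested.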

How the data were processed

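Liver RNA-seq tables of 10 mice were analysed, grouped by their labels into 5 saline and 5 CD95-Ab mice. The authors assigned reads to genes with RSEM 1.2.19 and deposited, for every gene and mouse, 1 expected count and 1 FPKM value. The deposited expected counts are whole numbers without normalization, and the deposited FPKM values are scaled for length and total by RSEM. RSEM shares out reads that fit several genes. The genome build and mouse annotation used for the counts are not given in the sources used here, and a human Gencode release is named there although the identifiers are those of mouse. Symbols were taken from GENCODE release M21 (GRCm38), which named 37606 of 38922 identifiers.

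Genes were kept by filterByExpr (minimum count 10), totals were scaled by TMM, and edgeR 4.0.16 in R 4.3.3 tested the group term, without covariates, by quasi-likelihood. CPM are per 1000000 TMM-scaled counts. The standard error was derived from the F statistic. Ratios and shares were compared by exact permutation tests written in Python 3.11.15 with numpy 2.4.6. DESeq2 1.42.0, limma 3.58.1 on log2(FPKM + 0.1), other scalings, filters, pseudocounts and thresholds, a replicate block and leaving out each mouse were alternatives. The code was tested on simulated data. Depth was 25965699 to 62097636 counts per mouse, and ranges of CPM at 3 counts cover counting error only.

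The members and lists were chosen with earlier results of these data known. All 10 members were named. Of the lists of targets, regulators, partners and paralogs, the 6 largest changes that passed and the untested genes were named, except 1 gene that is not reported here, and for the GADD45 genes and Cdkn1a the 3 most similar genes. Map3k4, Camp, Mmp8, Rn7sk, Hist1h1c and Hist1h2bc were named after their values were seen. The promoter motifs, the search for full p53 sites and the printed stretches were chosen after matches had been looked at, and the correlations between members were tested after they had been seen. Promoter sequences came from RefSeq (GRCm38.p6).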

Additional observations from a re-analysis of the deposited data

Results flagged for a closer look

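Each of the 10 genes was examined for a mouse that stood apart within its group of 5, which makes 20 groups. In 1 of them, the lowest mouse was set apart: Ccng1 in CD95-Ab replicate 4, at 20 CPM, where the gap to the next mouse was 0.714 of the range of the group, against a critical value of 0.710. Chance gives such a gap in about 1 of 20 groups.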

How the results depend on the processing

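The count of members called was 7, and 6 to 8 under the alternatives. It was 8 with DESeq2, limma on FPKM and totals only, and 6 with the replicate block and at an FDR of 0.01. A minimum of 10 counts in every mouse gave 8 of only 9 tested, without Phlda3. Calls among all 13719 tested genes numbered 6495 in the main run, 6990 with DESeq2, 6118 with limma on FPKM and 6122 with totals only. They numbered 5987 with the replicate block and 4492 at an FDR of 0.01. With 10 counts in every mouse, 5630 of 12120 genes were called. Members called with a log2 fold change of 2 or more numbered 4 under each alternative run. No called value changed direction, whereas Phlda3, which was not called (-0.13), was at 0.04 without saline replicate 3 and at 0.02 without CD95-Ab replicate 1. Replicate numbers did not pair the mice (correlation of deviations for numbers 1 to 5: 0.269, 0.092, 0.136, -0.013 and -0.279). With the replicate block, Gadd45g was lost (1.72, FDR = 0.0501), p53 regulators called numbered 4, and the differences 2.92 and 0.46 for Cdkn1a and Mdm2 to Trp53 (adjusted p = 0.104) and 13.9 and -19.6 points for the shares of Gadd45a and Gadd45g (adjusted p = 0.125) were not called, in an exact sign-flip test that 5 pairs cannot bring below 0.05. Trp53inp1 also passed with totals only (0.76, FDR = 0.0469) and with 10 counts in every mouse (0.84, FDR = 0.0488). It did not pass with RLE scaling (0.81, FDR = 0.0577), without a filter (0.78, FDR = 0.0582) or with the replicate block (0.85, FDR = 0.0858). Gadd45g to Gadd45a passed on FPKM (-1.84, adjusted p = 0.0397). With a pseudocount of 1 CPM, the difference was 2.65 for Cdkn1a to Trp53 and -1.65 for Gadd45g to Gadd45a (exact permutation tests, adjusted p = 0.0198 and 0.0529). For the lists, p53 regulators called numbered 3 with totals only, 2 without a filter, 4 with limma and 2 at an FDR of 0.01. Kupffer cell markers numbered 1 with totals only, limma or an FDR of 0.01. T and NK cell markers numbered 2 with totals only or no filter and 1 with 10 counts in every mouse or an FDR of 0.01. With 10 counts in every mouse, which tests fewer genes, neutrophil markers numbered 3 and non-polyadenylated RNA genes 2, and cholangiocyte markers numbered 2 at an FDR of 0.01. The cause was not tested otherwise. With 1 mouse left out, the ranges were 2 to 6 for p53 regulators, 1 to 2 for Kupffer cell and 2 to 5 for T and NK cell markers. They were 2.19 to 3.39 for Cdkn1a to Trp53, 0.39 to 0.53 for Mdm2 to Trp53, -2.27 to -1.31 for Gadd45g to Gadd45a, -0.86 to -0.45 for Gadd45b to Gadd45a and 0.80 to 1.46 for Gadd45b to Gadd45g. For the shares they were 11.4 to 17.2 points for Gadd45a, 3.8 to 7.8 for Gadd45b (7.8 without saline replicate 4, adjusted p = 0.0317) and -23.9 to -15.5 for Gadd45g. Phlda3 had as few as 9 counts, and the part of depth in its spread was not tested.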
